A study of Mus musculus with 6 samples.

Results

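AMPA receptors carry most of the fast excitatory current between neurons, and 10 genes of this receptor were described in whole cerebella: the pore-forming subunits *Gria1*, *Gria2*, *Gria3* and *Gria4*, the auxiliary proteins *Cacng2*, *Shisa6*, *Shisa9*, *Cnih2* and *Cnih3*, and the scaffold *Grip1*. They were chosen by symbol from the 53746 genes of the count table, and all 10 were found. RNA came from 3 N153SLSL/LSLPcp2-cre mice (called Pcp2-cre mice) and 3 N153SLSL/LSL mice without Cre (controls), all 2 months old, with mice 1 and 2 male and mouse 3 female in each genotype. Both genotypes carry a knockin of the constitutively active STING variant behind a LoxP-flanked stop cassette, and the *Pcp2* promoter drives the Cre that removes it in Purkinje cells. Each library mixes all cells of a cerebellum, so fewer cells of a type and less RNA per cell cannot be told apart. The comparison asks which of these receptor genes differ once the mutant STING is expressed in Purkinje cells.

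An AMPA receptor is assembled from *Gria* subunits, and the mix of subunits sets how fast it gates and whether it passes calcium. Auxiliary proteins bind the assembled channel, bring it to the synapse and slow or shape its closing, and scaffolds hold it there. In the cerebellum, granule cell axons (parallel fibres) and climbing fibres excite Purkinje cells through these receptors, and removal of receptors from parallel fibre synapses underlies a form of long-term depression. Granule cells, interneurons and the Bergmann glia around Purkinje cells also carry AMPA receptors, those of Bergmann glia being rich in *Gria1* and *Gria4*.

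The 4 subunit genes are close relatives, and the stretch that lines the channel is shown first because it is nearly the same in all of them. Each line holds 30 coding bases on the sense strand, with the codon for the Q/R site in capitals, at which RNA editing of *Gria2* blocks calcium entry.
Gria1: ctgggggccttcatgCAGcaaggatgtgac
Gria2: ttgggtgcctttatgCAGcaaggatgcgat
Gria3: ttgggtgcttttatgCAGcaaggatgtgat
Gria4: ctgggtgcctttatgCAAcaaggatgtgac
In GRCm39 these lie at chr11:57133905-57133934 on the forward strand, chr3:80614206-80614235 on the reverse strand, chrX:40699127-40699156 on the forward strand and chr9:4464125-4464154 on the reverse strand, each within a coding exon. *Gria2* and *Gria3* share 28 of the 30 bases and *Gria1* and *Gria2* share 25. Gene counts hold no bases of the reads, so editing was not measured.

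In the canonical transcripts, the ends of the coding sequences set *Gria1* apart from the other subunits. They are shown because scaffold proteins with PDZ domains dock at the protein ends they encode. Ends of other transcripts of these genes were not compared. Each line holds the last 30 coding bases before the stop codon of the canonical Gencode transcript, with the final 12 in capitals.
Gria1: tcagggatgcccttgggaGCCACAGGATTG
Gria2: aacgtatatggcatcgagAGTGTTAAAATT
Gria3: aacgtgtatggaacagaaAGTGTTAAGATC
Gria4: aacgtatatggaaccgaaAGTATTAAAATT
Cacng2: aacacagccaaccgccggACCACGCCCGTA
Shisa6: tacacagccagcaagactGAAGTGACCGTG
Shisa9: atcactaacagcaaaacaGAAGTGACTGTC
They lie in GRCm39 at chr11:57218440-57218469 (forward strand), chr3:80596416-80596445 (reverse), chrX:40761309-40761338 (forward), chr9:4424212-4424241 (reverse), chr15:77879352-77879381 (reverse), chr11:66108301-66108330 (reverse) and chr16:12085635-12085664 (forward), in the order of the lines. *Gria2* and *Gria3*, the subunits that *Grip1* is known to bind, share 10 of the 12 capital bases, and *Gria1* and *Gria2* share 2. This likeness is not particular to that pair, as *Gria4* shares 11 of the 12 with *Gria2* and 9 with *Gria3*. *Shisa6* and *Shisa9* share 10 of the 12, and like *Cacng2* they are known to bind the synaptic scaffold encoded by *Dlg4* through this end. Within the pair of *Gria2* and *Gria3* and that of *Shisa6* and *Shisa9* the counts differed, as given below. *Gria3* and *Shisa6* were lower, and *Gria2* and *Shisa9* did not pass the test.

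Total counts lay between 6733178 and 10178218 per mouse, and no pair of libraries of a genotype agreed within sampling noise. *Sting1*, the engineered gene, had 23.1, 27.2 and 26.1 CPM in controls and 44.2, 34.1 and 35.4 CPM in Pcp2-cre mice, without overlap. A higher level without overlap was seen in 10.9% of the genes tested below. The log2 fold change of *Sting1* was 0.57 (SE 0.0970, edgeR quasi-likelihood adjusted p = 3.59e-04). By the thresholds given below it was called higher, as were 1.37% of the tested genes. Which cells gave the *Sting1* counts was not tested. CPM are counts scaled to a common library size with TMM factors. Of the 53746 genes, 16961 passed a filter on low counts and were tested with edgeR's quasi-likelihood test, all 10 receptor genes among them. Following the study's thresholds, a gene counted as called where its log2 fold change reached 0.5 in either direction with an adjusted p (Benjamini-Hochberg, over all tested genes) no higher than 0.05. Fold changes are Pcp2-cre over control with their standard error (SE). The edgeR p-values set each difference against the spread between these mice, estimated with information shared across genes. Exact permutation p-values, given further on, rank a difference among all regroupings of these mice.

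*Shisa6* and *Gria3* were called lower in Pcp2-cre cerebella and no receptor gene was called higher. By the adjusted p alone, *Gria1* and *Cacng2* were lower as well, and the other 6 did not pass. No receptor gene was higher at an unadjusted edgeR p under 0.05 either, and DESeq2 also called 0 higher. Among all tested genes 3.17% were called (1.79% lower, 1.37% higher) and 7.74% passed by the adjusted p alone (4.75% lower, 2.99% higher). The median log2 fold change of the 10 genes was -0.20, against 0.0045 over all genes tested, and 8 of the 10 were below 0. In 5 of the 10 the highest Pcp2-cre mouse was below the lowest control, which 11.4% of all tested genes showed.

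**Figure D1:**
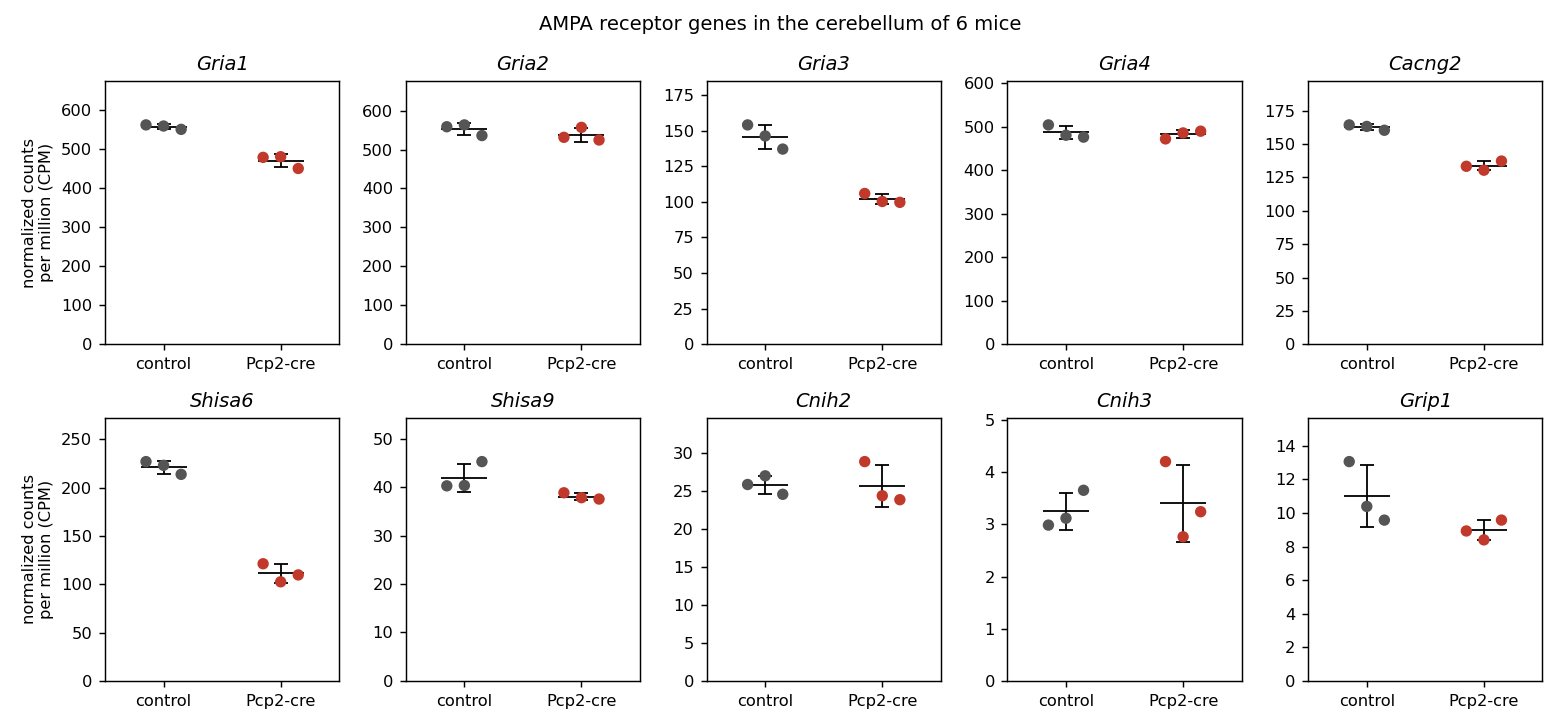
Normalized CPM (vertical axes, from 0) of the 10 receptor genes in 3 control (grey) and 3 Pcp2-cre (red) mice, numbered 1 to 3 from left to right within a genotype, with mean and SD in black. *Shisa6*, *Gria3*, *Gria1* and *Cacng2* separate the genotypes, *Shisa9* does so narrowly, and the points of *Gria2*, *Gria4*, *Cnih2*, *Cnih3* and *Grip1* overlap.

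Among the subunits, *Gria3* (chrX:40489476-40767490 in GRCm39) changed most. It had 154.0, 146.2 and 137.0 CPM in control mice 1, 2 and 3 and 105.8, 100.2 and 99.6 CPM in Pcp2-cre mice 1, 2 and 3. All Pcp2-cre mice lay below all controls, at 70.1% of the control level (95% interval 65.5% to 75.0%). Its log2 fold change was -0.51 (SE 0.0469, edgeR quasi-likelihood adjusted p = 1.04e-07). That is just past the threshold of 0.5, and without control mouse 1 the value was -0.47 and the call was lost although the adjusted p stayed at 2.90e-06. On log2(FPKM + 1), tested with limma, it was -0.44, short of the fold threshold at an adjusted p of 0.0114.

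*Gria1* (chr11:56902153-57221080) encodes a subunit found in Purkinje cells and Bergmann glia alike. It had 561, 558 and 549 CPM in control and 478, 479 and 449 CPM in Pcp2-cre mice. The groups did not overlap, and Pcp2-cre mice stood at 84.4% of control, with a 95% interval (79.9% to 89.1%) above that of *Gria3*. The log2 fold change was -0.25 (SE 0.0381, edgeR quasi-likelihood adjusted p = 1.39e-04), so *Gria1* was not called at the fold threshold. On log2(FPKM + 1) it was -0.23 and missed the test (limma adjusted p = 0.0608).

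*Gria2* (chr3:80588757-80710538), whose edited subunit keeps the channel closed to calcium, had 559, 563 and 536 CPM in control and 531, 557 and 524 CPM in Pcp2-cre mice. The groups overlapped, and the log2 fold change of -0.038 (SE 0.0384, edgeR quasi-likelihood adjusted p = 0.682) had a 95% interval from -0.12 to 0.042. *Gria4* (chr9:4417604-4796326), a subunit with fast gating that granule cells and Bergmann glia express, had 504, 480 and 476 CPM in control and 472, 486 and 490 CPM in Pcp2-cre mice. Its log2 fold change of -0.013 (SE 0.0382, edgeR adjusted p = 0.916) had an interval from -0.093 to 0.067. For both genes the interval leaves out a change of the size seen in *Gria3* or *Gria1*. Exons of *Gria4* overlap those of 3 opposite-strand long noncoding genes for 56 to 185 bases and those of *Gria2* overlap 1 for 635 bases, and the use of strand in counting is not given in the sources used here. *Gria2*, *Gria3* and *Gria4* each share 84 to 111 exonic bases with a predicted miRNA gene on the same strand.

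Levels of different genes were compared in the deposited FPKM, a measure scaled by exon length. The tool and exon lengths behind these FPKM are not given, and they need not follow the counts, as *Prrt2* shows below. In controls the order was *Gria1* (90.8 ± 1.71 FPKM, SD, n = 3 mice), *Gria4* (89.0 ± 2.45), *Gria2* (71.5 ± 3.56), *Shisa6* (28.9 ± 1.34), *Gria3* (24.9 ± 1.38), *Cacng2* (24.9 ± 0.489), *Cnih2* (16.1 ± 0.991), *Shisa9* (8.72 ± 0.0773), *Grip1* (1.76 ± 0.146) and *Cnih3* (1.10 ± 0.325). Of these neighbours, *Gria1* and *Gria4* overlapped in their control mice, as did *Gria3* and *Cacng2*, and the other neighbours did not. In Pcp2-cre mice *Gria4* stood first with 88.7 ± 4.31 FPKM before *Gria1* with 77.4 ± 4.41 FPKM, and *Shisa6* with 14.3 ± 0.999 FPKM had moved from the fourth place to the seventh, behind *Cnih2* with 16.1 ± 0.511 FPKM (SD, n = 3 mice each).

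Set against each other within a mouse, the subunits took different shares of their summed FPKM in the 2 genotypes. The sum was 282, 280 and 267 FPKM in control and 258, 265 and 235 FPKM in Pcp2-cre mice, lower in every Pcp2-cre mouse (p = 0.1 by two-sided exact permutation, the lowest that 3 mice against 3 allow). The share of *Gria3* was 9.34%, 8.86% and 8.87% in control and 7.57%, 6.93% and 7.09% in Pcp2-cre mice. The share of *Gria1* was 32.9% ± 0.603 in control and 30.6% ± 0.472 in Pcp2-cre mice (SD, n = 3 each), and that of *Gria4* was 32.2% ± 0.311 and 35.1% ± 0.893. For these 3 subunits the groups did not overlap (exact permutation p = 0.1 each, 0.133 after Benjamini-Hochberg adjustment over the 4 shares). *Gria2* had 25.9% ± 0.516 in control and 27.0% ± 0.830 in Pcp2-cre mice, and its groups overlapped (exact permutation p = 0.2, adjusted 0.2). No share could reach a p of 0.05 in this design.

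**Figure D2:**
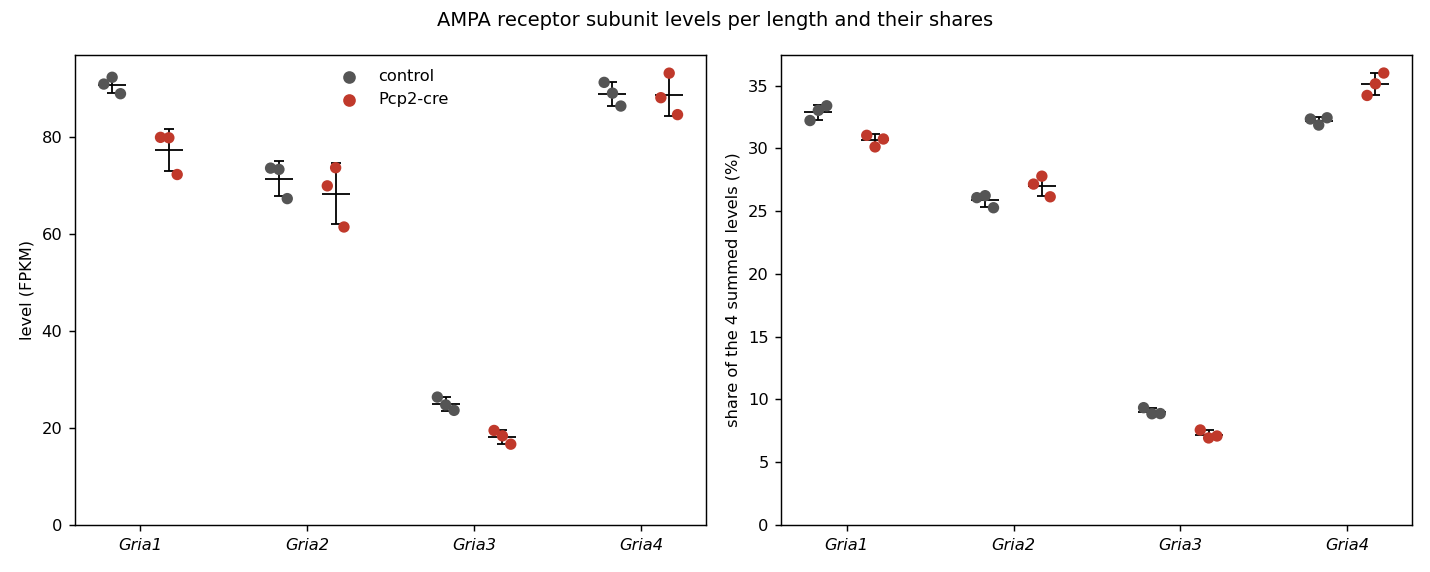
Level of each AMPA receptor subunit in FPKM (left) and its share of the 4 summed levels in percent (right) per mouse, control in grey and Pcp2-cre in red, with mean and SD in black. The *Gria3* and *Gria1* points are lower in Pcp2-cre mice on both panels, while *Gria4* takes 32.2% in control and 35.1% in Pcp2-cre mice at levels of 89.0 and 88.7 FPKM.

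Of the auxiliary proteins, *Shisa6* (chr11:66102551-66417652) had the smallest p of the 10 genes and ranked 11 among all 16961 tested. It encodes a membrane protein that keeps AMPA receptors from desensitizing at postsynaptic sites. It had 227, 223 and 214 CPM in control and 121.3, 102.6 and 109.8 CPM in Pcp2-cre mice, without overlap. The level in Pcp2-cre mice was 50.2% of control (95% interval 46.6% to 54.1%). The log2 fold change was -0.99 (SE 0.0516, edgeR quasi-likelihood adjusted p = 3.26e-11) and lay between -1.06 and -0.94 with single mice left out. Exons of *Shisa6* overlap those of an opposite-strand noncoding gene for 220 of 9125 exonic bases.

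By distance over the 6 mice of log2 CPM centred on the control mean, the genes nearest to *Shisa6* among the 16960 others were *Stk17b* (distance 0.0721, log2 fold change -0.99) and *Plpp6* (0.109, -0.94). *Stk17b* encodes a kinase and *Plpp6* a lipid phosphatase. This is a description over 6 mice in 2 genotypes.

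*Cacng2* (chr15:77875948-78004441) encodes stargazin, without which granule cells of stargazer mice lack AMPA receptors at their surface. It had 164.4, 163.3 and 160.4 CPM in control and 133.4, 130.5 and 137.3 CPM in Pcp2-cre mice, tightly grouped and without overlap. At 82.2% of control (95% interval 77.5% to 87.1%), its log2 fold change was -0.28 (SE 0.0405, edgeR quasi-likelihood adjusted p = 4.93e-05), under the fold threshold. *Shisa9* (chr16:11801977-12088766), a relative of *Shisa6* that is best known from the hippocampus, had 40.3, 40.4 and 45.3 CPM in control and 38.9, 37.8 and 37.6 CPM in Pcp2-cre mice. All Pcp2-cre mice lay below all controls, but its log2 fold change of -0.15 (SE 0.0720, edgeR adjusted p = 0.290) did not pass, with an interval from -0.30 to 0.0033. Without control mouse 3, the highest of the controls, it was -0.083. Opposite-strand noncoding exons cover 536 bases of *Cacng2* and 483 of *Shisa9*.

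The cornichon genes *Cnih2* and *Cnih3* encode proteins that help AMPA receptors out of the endoplasmic reticulum and slow their closing. *Cnih2* (chr19:5142891-5148672) had 25.9, 27.0 and 24.6 CPM in control and 28.9, 24.4 and 23.9 CPM in Pcp2-cre mice, and the groups overlapped. Its log2 fold change was 0.00083 (95% interval -0.19 to 0.19, edgeR quasi-likelihood adjusted p = 0.999). *Cnih3* (chr1:181180024-181289051) had 24, 21 and 37 counts in control and 32, 24 and 22 counts in Pcp2-cre mice, above the floor of 3 counts but too few for a narrow estimate (log2 fold change 0.044, 95% interval -0.44 to 0.53). A change of the size seen in *Gria1* or *Cacng2* was not detectable for *Cnih3* at this depth.

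*Grip1* (chr10:119289735-119923171), the PDZ scaffold that anchors *Gria2* and *Gria3* subunits, had 105, 70 and 97 counts in control and 68, 73 and 65 counts in Pcp2-cre mice. In CPM these were 13.1, 10.4 and 9.57 against 8.93, 8.40 and 9.58, so that control mouse 3 and Pcp2-cre mouse 3 lay side by side. The log2 fold change was -0.29 (SE 0.146, edgeR quasi-likelihood adjusted p = 0.297), with a wide interval from -0.60 to 0.010. Control mouse 1 weighed on this value, which was -0.15 without it, and on log2(FPKM + 0.1) it was -0.48 (limma adjusted p = 0.158). In FPKM the groups did not overlap, with 1.91, 1.62 and 1.76 in control and 1.15, 1.31 and 1.23 in Pcp2-cre mice.

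A further 41 genes of the receptor's assembly and anchoring were listed by function, and 40 were tested. Of these 40, 1 was called lower and 0 higher, against 1.79% and 1.37% of all tested genes. By edgeR's adjusted p alone 7 were lower and 2 higher, against 4.75% and 2.99% of all tested genes. At an unadjusted edgeR p under 0.05 the counts were 10 lower and 2 higher. The share over all genes was not worked out by direction, but such a p was common. With both directions together, an edgeR p of 0.0461 had rank 2966 and one of 0.0521 had rank 3119 among the 16961 tested genes. DESeq2 also called 0 of them higher. Their median log2 fold change was -0.029, against 0.0045 over all genes tested.

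Of 16 other auxiliary proteins, *Syndig1* was lower, *Cacng4* and *Olfm1* were higher and 13 did not pass. None of the 16 reached the fold threshold. *Syndig1*, whose product promotes the growth of excitatory synapses, had 88.7, 85.6 and 86.3 CPM in control and 64.6, 62.1 and 64.4 CPM in Pcp2-cre mice. That is a log2 fold change of -0.45 (SE 0.0488, edgeR quasi-likelihood adjusted p = 1.28e-06). *Cacng4*, a relative of stargazin, rose by 0.26 on the log2 scale (SE 0.0716, adjusted p = 0.0240) and *Olfm1*, a secreted protein that binds AMPA receptors, by 0.14 (SE 0.0402, edgeR adjusted p = 0.0340). *Cacng4* had 41.0, 35.9 and 37.5 CPM in control and 44.2, 47.7 and 45.4 CPM in Pcp2-cre mice, without overlap. The count and FPKM tables differed for *Prrt2*, named after its values were seen: it had 15 to 21 counts per mouse but 95.2 to 107.8 FPKM, and its wide interval rests on these counts.

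Of the 6 assembly proteins of the endoplasmic reticulum, *Frrs1l*, which is needed for the early assembly of the receptor, was lower by a small amount and the other 5 did not pass. Its log2 fold change was -0.16 (SE 0.0386, edgeR quasi-likelihood adjusted p = 0.0123). *Abhd6* (-0.087) and *Porcn* (-0.042) came next by p (edgeR adjusted p = 0.584 and 0.672).

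Of the 19 scaffold and trafficking genes, 18 were tested, and 5 were lower, *Dlg2*, *Nptx1*, *Prkca* and *Grip2* among them, while 13 did not pass. Those 4 stayed under the fold threshold. *Prkca*, the kinase that drives receptor removal in long-term depression, had a log2 fold change of -0.31 (SE 0.0601, edgeR quasi-likelihood adjusted p = 0.00162). For *Dlg2*, a postsynaptic scaffold, it was -0.40 (adjusted p = 1.88e-06), for *Nptx1*, a secreted protein that clusters AMPA receptors, -0.24 (adjusted p = 8.19e-05) and for *Grip2*, the relative of *Grip1*, -0.36 (adjusted p = 0.0492, all by edgeR). *Grip2* is named here after its value was seen.

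**Figure D3:**
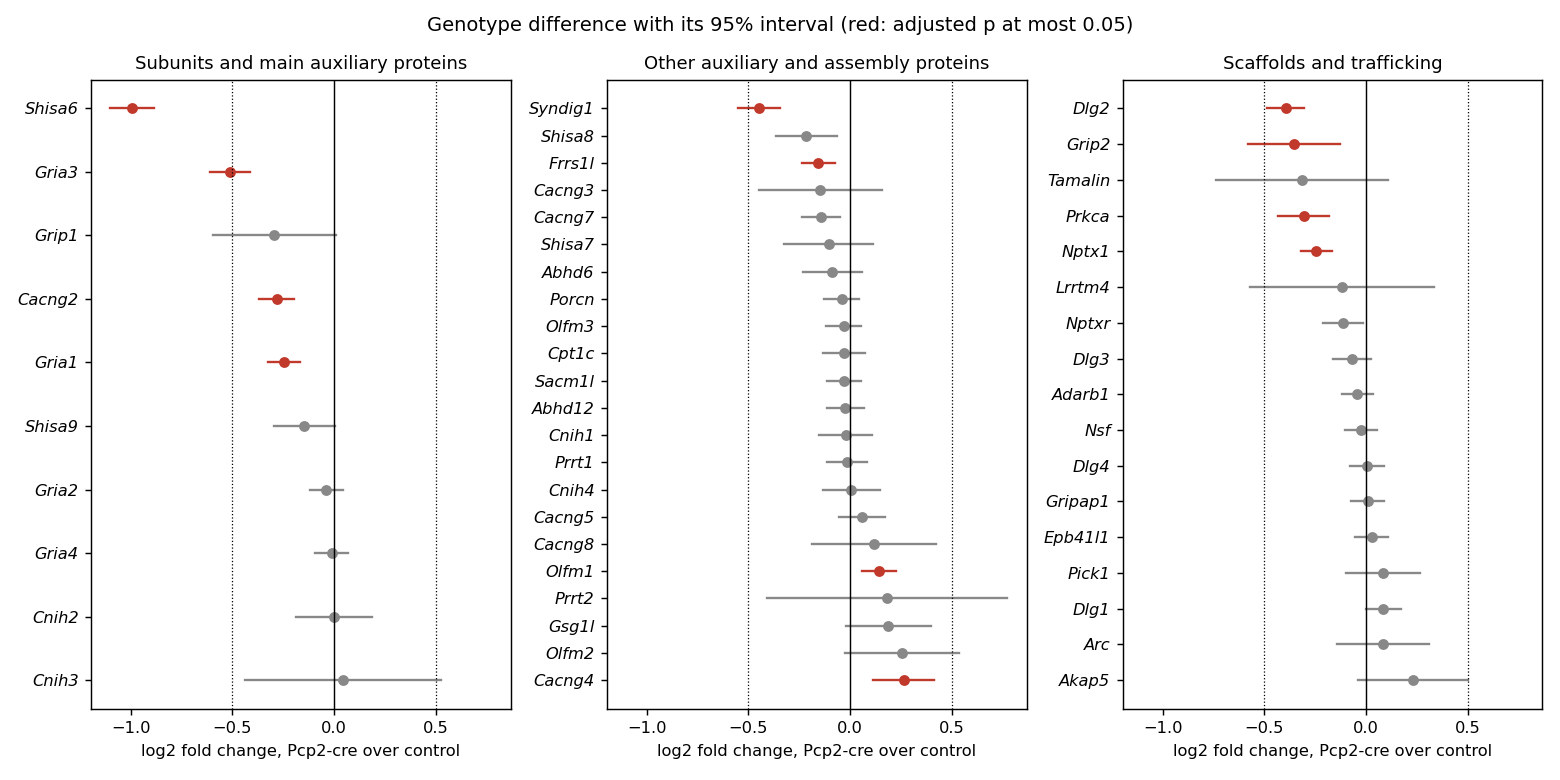
Log2 fold change (horizontal axis, Pcp2-cre over control) with its 95% interval for the 10 receptor genes (left), 22 other auxiliary and assembly genes (middle) and scaffold and trafficking genes (right), in red at an adjusted p of at most 0.05, with dotted lines at 0.5 in either direction. *Shisa6* (-0.99) and *Gria3* (-0.51) lie past the dotted line, and intervals that span 0 run from narrow (*Gria2*, *Gria4*) to wide (*Cnih3*, *Prrt2*).

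Markers of cell types moved beside these genes. All 10 Purkinje cell markers passed by the adjusted p, 8 were called lower, and their log2 fold changes ran from -0.98 to -0.40 with a median of -0.77. *Itpr1* (-0.98), *Rgs8* (-0.69) and *Car8* (-0.96) were the most abundant of them. Their summed level was 7756 to 8483 CPM in control and 4318 to 4801 CPM in Pcp2-cre mice, and none was at 0. The log2 fold change of *Shisa6* (-0.99) lay just below this range and that of *Gria3* inside it, while *Cacng2* and *Gria1* had smaller fold changes than any of the 10 markers.

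Each receptor gene was set against the 10 Purkinje cell markers of the same mouse, as the difference from their mean log2 CPM, centred on the controls. *Shisa6* was lower by this measure, at 0.034, -0.028 and -0.0066 in control and -0.24, -0.29 and -0.25 in Pcp2-cre mice. Such a lower level without overlap was seen in 0.389% of all tested genes. The mean of the markers takes in some with smaller falls, down to a log2 fold change of -0.40. *Itpr1* (-0.98) and *Car8* (-0.96) fell nearly as far as *Shisa6* (-0.99). A level below this mean thus does not set *Shisa6* apart from the most reduced markers. The other 9 receptor genes were higher without overlap, as were 90.4% of all tested genes. *Gria3* was the least raised of them, with 0.17, 0.28 and 0.21 in Pcp2-cre mice, and *Gria1* had 0.41, 0.60 and 0.45. *Gria2* and *Gria4* had means of 0.69 ± 0.129 and 0.72 ± 0.123 (SD, n = 3 mice each). For each of the 10 genes the two-sided exact permutation test gave p = 0.1 (0.1 after adjustment over the 10), the smallest p it allows. The part of the Purkinje cell markers in the receptor results was not tested beyond these values.

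**Figure D4:**
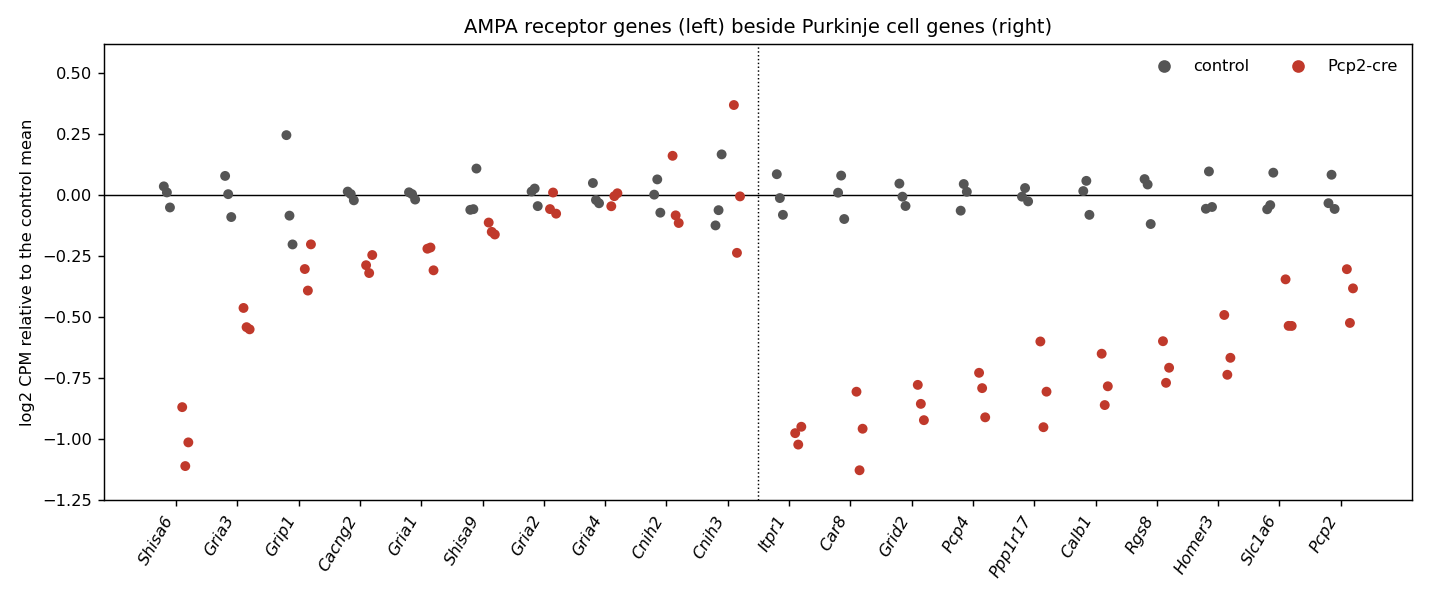
Log2 CPM relative to the control mean (vertical axis) per mouse for the 10 receptor genes (left of the dotted line) and the 10 Purkinje cell markers (right), each ordered by fold change, control in grey and Pcp2-cre in red. *Shisa6* falls as far as *Itpr1*, *Gria3* lies among the least changed markers, and *Gria2*, *Gria4*, *Cnih2* and *Cnih3* stay around 0.

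Other cell types that carry AMPA receptors were followed through their markers. Of 8 granule cell markers, *Neurod1* was higher by 0.17 on the log2 scale (edgeR quasi-likelihood adjusted p = 0.0282) and 7 did not pass. Their median was 0.068, and their summed level was 5353 to 5508 CPM in control and 5599 to 5763 CPM in Pcp2-cre mice. Without overlap 4 of the 8 were higher and 0 lower, against 10.9% and 11.4% of all tested genes. At an unadjusted edgeR p under 0.05, 4 were higher and 0 lower. *Cbln3* (0.015), *Fat2* (0.054) and *Zic1* (0.098) were the most abundant. Of 5 molecular layer interneuron markers *Cdh22* was lower (-0.22, edgeR adjusted p = 0.0205), with a median of -0.051 and sums of 401 to 404 CPM in control and 369 to 401 CPM in Pcp2-cre mice. None of the 4 Golgi and unipolar brush cell markers passed, and 0 had an unadjusted edgeR p under 0.05 (median 0.031, 260 to 266 and 266 to 280 CPM).

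The 10 Bergmann glia and astrocyte markers went both ways. *Gfap* (1.94) and *Aqp4* (0.51) were called higher and *Gja1* (0.37) was higher under the fold threshold. *Slc1a3* (-0.22) and *Gdf10* (-0.25) were lower under the fold threshold. The other 5 did not pass, *Sox9* (0.27), *Fabp7* (0.21), *Aldh1l1* (0.083) and *Hopx* (-0.058) among them. The median of the 10 markers was 0.15. Their sum was 2833 to 2884 CPM in control and 3213 to 3303 CPM in Pcp2-cre mice. *Slc1a2*, an abundant astrocyte glutamate transporter, had 0.080. Of 10 microglia markers 8 were called higher, *Csf1r* (0.96) and *Cx3cr1* (1.48) among them, while *P2ry12* (0.28) and *Tmem119* (0.061) did not pass (median 1.71, sums of 112 to 114 and 288 to 318 CPM). Of 8 oligodendrocyte markers 6 were higher under the fold threshold, *Mbp* (0.25) among them, and *Mobp* (0.11) did not pass (median 0.19, sums of 3748 to 3995 and 4398 to 4616 CPM), and none of 4 oligodendrocyte precursor markers passed, with 1 higher at an unadjusted edgeR p under 0.05 (median 0.16, sums of 91.7 to 99.7 and 101.5 to 111.1 CPM).

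The 6 choroid plexus markers split the control libraries, with a summed level of 16.5 to 1196 CPM in control and 7.88 to 70.6 CPM in Pcp2-cre mice. The 3 that passed the filter were called lower (median -3.86). *Ttr* had 5169, 6896 and 31 counts in control mice 1, 2 and 3, with few in control mouse 3, and 32, 59 and 415 counts in Pcp2-cre mice 1, 2 and 3. Control mouse 3, whose *Ttr* count was as low as in Pcp2-cre mice, had 214 CPM of *Shisa6* and 137.0 CPM of *Gria3*, the lowest of the controls and above all Pcp2-cre mice (at most 121.3 and 105.8 CPM). The log2 fold change of *Shisa6* was -0.98 without control mouse 1, -0.99 without control mouse 2 and -1.02 without control mouse 3. That of *Gria3* was -0.47 (call lost), -0.51 and -0.56 in the same order. No listed marker gene was at 0 in all 6 mice. The part of these other cell types in the receptor results was not tested.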

How the data were processed

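Cerebellar RNA of 6 mice was sequenced as poly A-enriched paired reads. After trimming, the authors used STAR against GRCm39, with featureCounts and StringTie on a Gencode annotation. The deposited tables hold raw counts for each gene and FPKM, which scale fragments by exon length and library size. Tool versions, the tool behind the FPKM, Gencode release, strand use and multi-mapping are not given in the sources used here.

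The counts entered edgeR 4.0.16 under R 4.3.3, with filterByExpr, TMM factors and a quasi-likelihood fit over all 16961 tested genes, adjusted by Benjamini-Hochberg. Standard errors were derived from the F statistic and intervals are at 95%. A floor of 3 counts came to 0.295 to 0.446 CPM and, like all depth limits here, covers counting error only. Shares and marker-relative levels were compared by two-sided exact permutation over mice. Alternatives used DESeq2 1.42.0, limma 3.58.1 on log2(FPKM + 1) or log2(FPKM + 0.1) with a mean FPKM of at least 0.1 or unfiltered, other filters, size factors, covariates and thresholds, and each mouse left out. Scripts were tested on simulated counts. Coordinates and coding sequences come from Gencode M39 (GRCm39), matched by gene ID for all 10 genes.

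All 10 receptor genes are named. Of the listed related genes those called are named, with up to 3 more per list by smallest p, and of the marker lists up to 3 by highest CPM. Markers outside these 3 (such as *Neurod1*, *Cdh22*, *Gfap*, *Gdf10*, *Gja1*, *Sox9*, *Fabp7*, *Aldh1l1*, *Hopx*, *P2ry12* and *Tmem119*) were named after their values were seen. The 3 genes nearest to the receptor gene of smallest p are also named. Results for some genes that this rule selects are not reported here. Receptor genes, lists and tests were chosen with earlier results of these data known.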

Additional observations from a re-analysis of the deposited data

How the results depend on the processing

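Of 160 single-gene values recomputed under the alternatives, 145 kept their direction and side of the adjusted p threshold, 4 lost it and 11 changed sign, all of the latter in genes near 0 that never passed. *Gria1* lost it on log2(FPKM + 1) (-0.23, adjusted p = 0.0608 from limma), log2(FPKM + 0.1) and without an FPKM filter, and *Gria3* without an FPKM filter (-0.44, adjusted p = 0.0675 from limma). *Cnih2* turned to -0.00098 with DESeq2 size factors, -0.0034 with DESeq2, -0.0099 without a count filter, -0.0060 with the replicate block and -0.0090 with sex as a covariate, and ranged from -0.093 to 0.043 with single mice left out. In the same way *Gria4* ranged from -0.030 to 0.010 and *Cnih3* from -0.14 to 0.19, while *Gria2* (-0.066 to -0.024), *Shisa9* (-0.18 to -0.083) and *Grip1* (-0.40 to -0.15) kept their sign without passing.

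The 2 receptor genes called lower became 1 with each FPKM fit, 4 with no fold threshold and 0 where the log2 fold change had to reach 1, and 1 to 2 with single mice left out (1 without control mouse 1, where *Gria3* was lost). No alternative called a receptor gene higher. The 1 related gene called lower became 2 on log2(FPKM + 0.1), 7 with no fold threshold and 0 where the log2 fold change had to reach 1, and the 0 called higher became 2 with no fold threshold. The difference in the *Gria2* share was 2.05 percentage points on counts not scaled by length, against 1.17 on FPKM. On FPKM it was 0.79 to 1.61 with single mice left out. Its exact permutation p was 0.1 on counts, the smallest the test allows, and 0.2 on FPKM, so the overlap of its groups depended on the measure.

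Same-numbered mice of the 2 genotypes correlated in their deviations from the group mean by 0.0645, 0.077 and 0.224. Mice 1 and 2, crossed between genotypes, gave 0.0758 and 0.0945. Every pair of mouse 3 with mouse 1 or 2 was negative, from -0.146 to -0.120. Mouse 3 was the female in each genotype, so these values do not settle whether the numbers pair the mice. With the replicate block 2 receptor genes were called lower (*Shisa6* -0.99, *Gria3* -0.52), and the exact sign-flip test of a share or marker-relative level over 3 pairs cannot go under p = 0.25. Depth limits *Cnih3* and *Grip1* most.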
